A study of Homo sapiens with 6 samples.

Results

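MEST is the gene on the long arm of chromosome 7, in band 7q32, whose transcript level was lower in siPrp19 cells by nearly the same factor as PRPF19, the gene targeted by the siRNA. It was chosen for that difference, so the values of MEST between NC and siPrp19 are given as a description and without a test. It was examined with 3 genes of the same band, COPG2, CPA4 and CEP41, which makes 4 genes of the 58735 in each file. To cover the locus without picking neighbours by their values, all 18 protein-coding genes within 1 Mb of either end of MEST were examined, of which 12 had a mean level of at least 1 FPKM (fragments per kilobase of exon after scaling by sequencing depth) and could be tested. The question was whether the lower level of MEST extended to the genes beside it.

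RNA sequencing was carried out on SK-N-AS, an established human neuroblastoma cell line, in 3 NC and 3 siPrp19 libraries. NC cells received a negative control siRNA and siPrp19 cells an siRNA against Prp19, a core factor of pre-mRNA splicing encoded by PRPF19, and the labels give 72 h of transfection for all 6 while the methods give a shorter time. Both groups share the cell line, the medium and the transfection, and the replicates are described as biological without a statement that they were separate cultures or transfections, so the p-values may measure only the spread between these libraries. Of the siRNAs described against Prp19, the first was chosen for the later assays on the basis of its knockdown, and the labels do not name the one used for sequencing. The files of NCb and siPrp19b are recorded under samples of the opposite group, and the libraries are grouped here by the name of their value column. Results are also given for the 4 libraries whose column name and sample state the same group (NCa, NCc, siPrp19a and siPrp19c) and for the 6 libraries grouped as recorded.

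MEST (mesoderm specific transcript, also known as PEG1) is an imprinted gene, expressed mainly from the paternal copy, and encodes a membrane protein of the endoplasmic reticulum with an alpha/beta hydrolase fold. It is known for its part in fetal growth and adipocyte expansion, and it has been described to hinder the maturation of the WNT co-receptor LRP6. An intron of MEST holds the hairpin of the microRNA miR-335, an antisense RNA, MESTIT1, starts near its promoter, and the gene meets COPG2 tail to tail at its 3' end.

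The sequences shown here come from RefSeq on GRCh38.p14. The 2 mature microRNAs processed from the hairpin inside MEST are shown first because they are encoded within the gene, at chr7:130496126-130496148 and chr7:130496162-130496183 on the plus strand, with the seed (bases 2 to 8) in capitals.

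hsa-miR-335-5p: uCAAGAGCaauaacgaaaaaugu
hsa-miR-335-3p: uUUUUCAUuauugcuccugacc

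The 2 mature forms do not share a seed. The table of promoters held 5 windows for MEST and at least 1 for 12 of the 18 protein-coding neighbours. One window of 250 bases before a RefSeq start of MEST (chr7:130491808-130492057, plus strand) and the window before the RefSeq start of CPA4 (chr7:130292911-130293160, plus strand) are printed because CPA4 was the only one of the 3 genes named with MEST to pass the test. CpG dinucleotides, the target of DNA methylation and the mark through which imprinting is set, are in capitals.

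MEST: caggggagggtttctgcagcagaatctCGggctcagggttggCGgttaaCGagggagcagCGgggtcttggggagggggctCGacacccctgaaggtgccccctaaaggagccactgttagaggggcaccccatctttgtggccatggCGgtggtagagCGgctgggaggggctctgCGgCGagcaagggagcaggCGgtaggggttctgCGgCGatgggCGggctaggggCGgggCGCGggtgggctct
CPA4: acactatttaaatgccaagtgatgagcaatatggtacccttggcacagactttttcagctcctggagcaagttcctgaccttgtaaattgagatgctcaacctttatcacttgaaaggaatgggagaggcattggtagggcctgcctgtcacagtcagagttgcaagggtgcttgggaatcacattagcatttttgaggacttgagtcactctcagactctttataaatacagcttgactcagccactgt

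The MEST window was the one with the most CpG of those with 0 bases in annotated exons of MEST, and 27 bases of the CPA4 window lie in exons that GENCODE 29 gives to CPA4. The MEST window held 16 CpG, and 41.0% of the 35116 promoter windows of this length in the table held at least as many. The other 4 MEST windows held 9, 11, 20 and 20 CpG. The CPA4 window held 0, against a median of 11 over all windows. The COPG2 window held 30 CpG and the CEP41 window 19, although 221 of the 250 bases of the latter lie in annotated exons of CEP41. These counts describe the sequence alone, and methylation was not measured.

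The libraries held between 14887132 and 19977811 recovered reads and between 26226 and 28454 genes above 0. The share of reads on mitochondrial genes was between 5.15% and 5.49% in 5 libraries and 8.29% in siPrp19a. Compared as counts over genes, NCa and NCb had a chi-square per degree of freedom of 1.72 and siPrp19b and siPrp19c of 2.59, whereas the other 13 pairs had 18.0 to 46.7. Both close pairs still differed by more than sampling noise and were kept as separate libraries, although this does not show that they are independent replicates. The p-values below treat each library as a replicate, and counts with each pair averaged are also given below. Of the marker lists, the adrenergic neuroblastoma list had 9 of 10 genes tested (summed level 337 to 357 FPKM in NC and 265 to 278 FPKM in siPrp19, 2 called lower) and the mesenchymal list 8 of 9 (310 to 339 FPKM and 245 to 274 FPKM, 1 called lower, YAP1). The epithelial markers summed to at most 2.69 FPKM, the endothelial to at most 1.12 FPKM and the adipocyte to at most 0.159 FPKM. The immune list summed to 25.0 to 30.9 FPKM in NC and 17.0 to 20.6 FPKM in siPrp19, nearly all from PTPRC, its 1 tested gene, which was called lower (log2 fold change -0.63, limma adjusted p = 0.0202), while its other markers were each under 1 FPKM and CD3E was at 0. Calls in the marker lists are to be read beside the 7.94% of all tested genes called. The part of these marker differences in the results below was not tested.

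PRPF19, as the check of the groups, was at 83.0, 83.1 and 93.0 FPKM in NCa, NCb and NCc and at 19.6, 19.1 and 18.5 FPKM in siPrp19a, siPrp19b and siPrp19c. The target was 77.9% lower in the mean of the siPrp19 columns, with a log2 fold change of -2.12 ± 0.074 (SE) and a limma adjusted p of 0.000215. NCb thus had the target level of the other NC columns and siPrp19b that of the other siPrp19 columns, against the groups of the samples under which those 2 files are recorded. With the 4 libraries the log2 fold change was -2.15 (limma adjusted p = 0.0266), and with the 6 libraries as recorded it was -0.74 (limma adjusted p = 1.00).

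MEST (ENSG00000106484, GRCh38 chr7:130486171-130506465, plus strand) was at 109, 108 and 118 FPKM in NCa, NCb and NCc and at 25.0, 27.9 and 24.6 FPKM in siPrp19a, siPrp19b and siPrp19c. All 3 NC libraries lay far above all 3 siPrp19 libraries, with no overlap, and the libraries of each group lay close together. These levels rest on 8265, 7660 and 9734 reads in NC and on 1891, 2204 and 2473 reads in siPrp19, so counting error was small beside the difference. The mean level was 112 ± 5.45 FPKM in NC and 25.8 ± 1.79 FPKM in siPrp19 (SD, n = 3 each), a 4.33-fold lower level or 76.9% less, and the difference on the log2(FPKM + 1) scale was -2.07. In the order of the 13718 tested genes from the most negative change, MEST stood at place 3, after ENSG00000276118 and PRPF19.

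The difference in MEST was about as large as that in the siRNA target in each library. The ratio of the MEST level to the PRPF19 level was 1.31, 1.30 and 1.27 in the NC columns and 1.27, 1.46 and 1.33 in the siPrp19 columns. Both genes were lower by more than 4-fold, and the ratio moved little between the groups. This follows from the choice of MEST for its likeness to the siRNA target and is given as a description. With the 4 libraries the log2 fold change of MEST was -2.15, and with the 6 libraries as recorded it was -0.79. In the latter grouping each group holds 1 library with the MEST level of the other, as it does for PRPF19. In these bulk libraries fewer cells expressing a gene and less RNA per cell cannot be told apart.

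**Figure D1:**
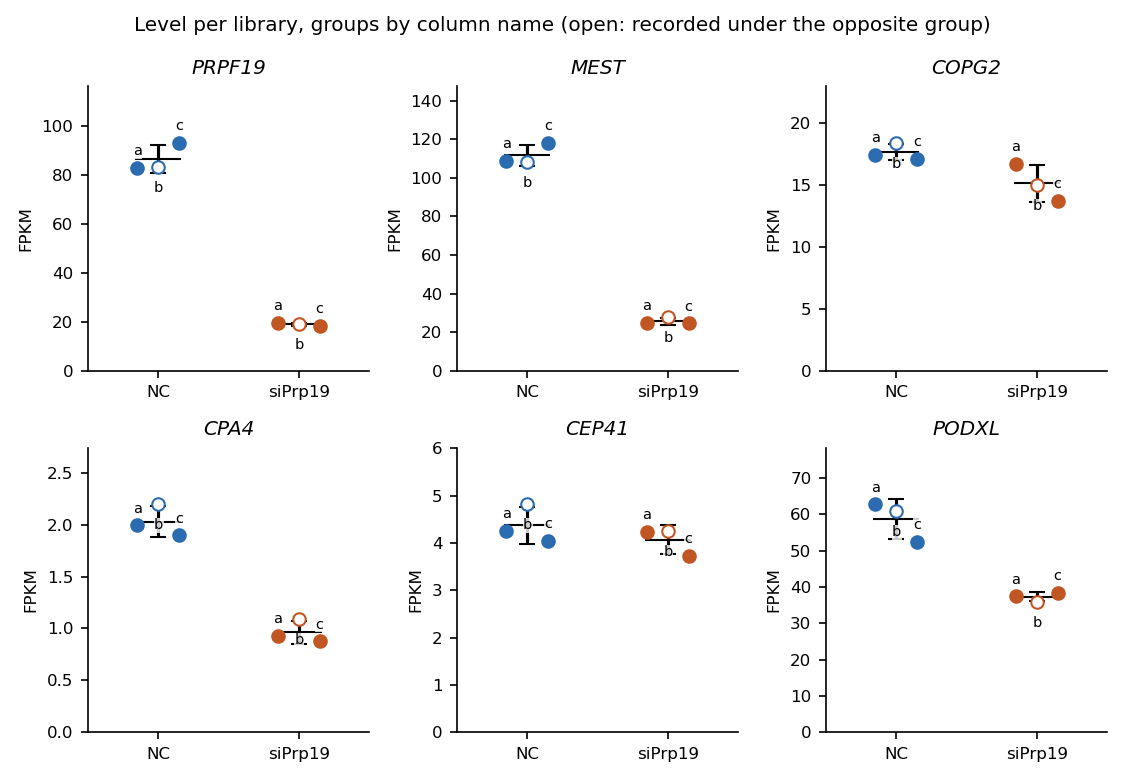
Level in FPKM (vertical axes, from 0) of PRPF19, MEST, COPG2, CPA4, CEP41 and PODXL in each library, with libraries a, b and c of each group as points, the mean as a bar and the SD as whiskers (n = 3). Open points are NCb and siPrp19b, recorded under samples of the opposite group. NC and siPrp19 are far apart in PRPF19 and MEST, apart in CPA4 and PODXL, close without overlap in COPG2 and overlapping in CEP41.

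The genes that lie across MEST itself were considered next, since the strand setting of the counting was not stated and reads from overlapping genes on opposite strands cannot be told apart without it. Of 7 annotated genes overlapping MEST, 3 lie on the minus strand. Of the 4794 exonic bases of MEST, 1314 (27.4%) are shared with exons of other genes, and MEST and COPG2 overlap by 228 bases. MESTIT1 (chr7:130486042-130491033, minus strand), an antisense RNA expressed from the paternal copy, had 28, 13 and 24 reads in NC and 26, 39 and 41 reads in siPrp19. Its counts overlapped between the groups and its mean level was 0.327 ± 0.108 FPKM in NC and 0.483 ± 0.0874 FPKM in siPrp19 (SD, n = 3 each), so it was under the filter and was not tested. ENSG00000270823 (chr7:130495794-130498427, minus strand) had 17, 15 and 15 reads in NC and 3, 3 and 8 reads in siPrp19. It was lower in every siPrp19 library, but shares 602 exonic bases with MEST and at these counts was also left out of the test. MIR335 and the 3 other short RNAs annotated inside MEST had 0 reads in all 6 libraries, which allows up to 3 reads each by counting error alone. The MIR335 hairpin has 0 bases in exons of MEST, and libraries of size-selected fragments do not measure the mature microRNAs.

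COPG2 (ENSG00000158623, chr7:130506238-130668748, minus strand) encodes a gamma subunit of the COPI coatomer, the coat of vesicles that return cargo from the Golgi to the endoplasmic reticulum. It was at 17.5, 18.4 and 17.2 FPKM in NC and at 16.7, 15.0 and 13.7 FPKM in siPrp19. All siPrp19 libraries lay below all NC libraries, by a margin much smaller than in MEST, and each value rests on 1024 to 1221 reads. The log2 fold change was -0.21 ± 0.084 (SE, 95% interval -0.41 to -0.014), with a limma adjusted p of 0.184, which did not pass the threshold of 0.05. The ratio of the MEST level to the COPG2 level was 6.23, 5.88 and 6.88 in NC and 1.49, 1.86 and 1.79 in siPrp19. This follows from the choice of MEST for its lower level and is given as a description. With the 4 libraries the log2 fold change of COPG2 was -0.18 (limma adjusted p = 0.643).

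CEP41 (ENSG00000106477, chr7:130393771-130442433, minus strand) encodes a centrosomal and ciliary protein needed for tubulin glutamylation and mutated in Joubert syndrome, and it lies 43.7 kb before the annotated start of MEST. It was at 4.26, 4.81 and 4.05 FPKM in NC and at 4.24, 4.25 and 3.73 FPKM in siPrp19. The groups overlapped. The log2 fold change was -0.08 ± 0.086 (SE, 95% interval -0.29 to 0.12), with a limma adjusted p of 0.620. The interval does not reach a change of the size seen in MEST, which was chosen for that size. With the 6 libraries as recorded the sign turned (0.015).

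CPA4 (ENSG00000128510, chr7:130293134-130324180, plus strand) encodes a secreted metallocarboxypeptidase of the M14 family, has itself been described as imprinted in some tissues, and lies 162 kb before MEST. It was at 1.99, 2.19 and 1.89 FPKM in NC and at 0.928, 1.09 and 0.878 FPKM in siPrp19. Every siPrp19 library lay at about 1 FPKM and every NC library near 2 FPKM, on 125, 128 and 129 reads in NC and 58, 71 and 73 reads in siPrp19. The mean was 2.10-fold lower, from 2.03 ± 0.152 to 0.964 ± 0.109 FPKM (SD, n = 3 each). On the log2(FPKM + 1) scale, which understates the change at such low levels, the log2 fold change was -0.62 ± 0.10 (SE, 95% interval -0.86 to -0.38), with a limma adjusted p of 0.0155. CPA4 was thus the only one of the 3 genes named with MEST that passed, against 7.94% of all tested genes called in either direction and 5.37% called lower. The call was lost when any of 4 libraries was left out: the limma adjusted p was 0.0726 without NCa, 0.0742 without NCb, 0.0541 without siPrp19b and 0.0742 without siPrp19c. These are the members of the 2 close pairs, and with each pair averaged the limma adjusted p was 0.198. It was 0.206 with the 4 libraries and 1.00 as recorded, where the log2 fold changes were -0.63 and -0.22.

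**Figure D2:**
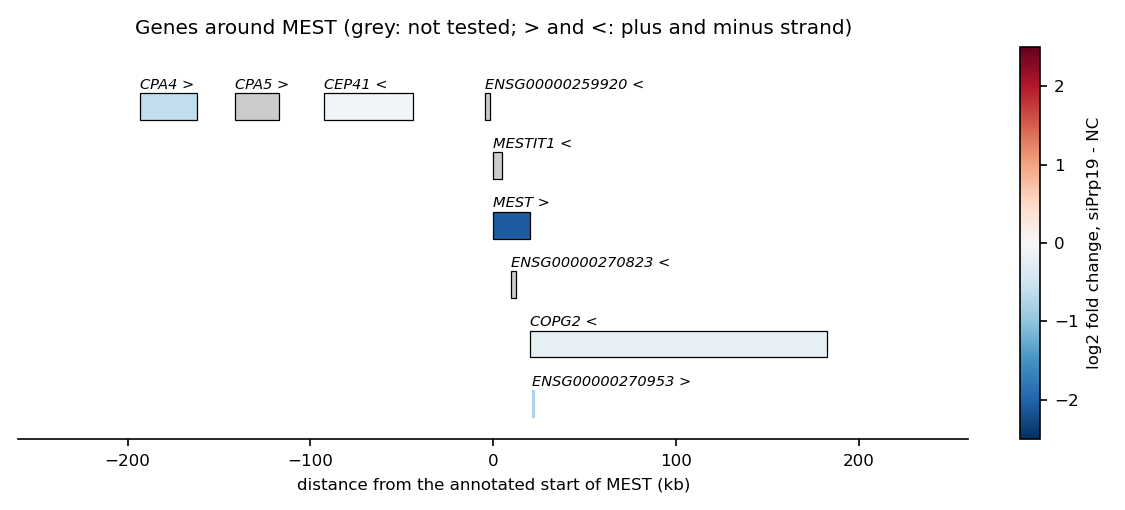
Genes within 260 kb of the annotated start of MEST that had at least 9 reads in 1 library, drawn to scale by distance in kb (horizontal axis, plus and minus strands marked > and <) and coloured by the log2 fold change of siPrp19 against NC, with genes that were not tested in grey. MEST, at -2.07, is the darkest, and COPG2 and CEP41 on its sides are near white at -0.21 and -0.08. Also drawn are CPA4 at -0.62 and the non-coding ENSG00000270953, 1.2 kb after the end of MEST, at -0.76.

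Over the whole window of 1 Mb, 2 of the 12 tested protein-coding neighbours were called lower, CPA4 and PODXL, and 0 were called higher. This is 16.7% of the neighbours, beside 7.94% of all tested genes. Among the 10 neighbours that were not called, 5 had a negative and 5 a positive log2 fold change, between -0.21 and 0.35. The median over the 12 was -0.12, beside -0.02 over all tested genes. MEST was chosen for its large difference, so the gap between it and the neighbours is given as a description. On the log2(FPKM + 1) scale the most negative change among the 12 was -0.64, beside -2.07 for MEST. This scale compresses low genes, and for CPA4 the change was -1.002 with a pseudocount of 0.1 and -1.07 by voom on recovered reads. Groups did not overlap, with siPrp19 lower, in 4 of the 12 (18.1% of all tested genes) and, with siPrp19 higher, in 1 of the 12 (13.2% of all tested genes).

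On the side before MEST, CPA4 and CEP41 are followed outward by TMEM209, KLHDC10, ZC3HC1, UBE2H, NRF1, SMKR1 and STRIP2. TMEM209, which encodes a protein of the nuclear envelope, was at 12.5, 12.7 and 12.6 FPKM in NC and at 13.6, 9.71 and 9.53 FPKM in siPrp19. Its siPrp19a library, the one with the high mitochondrial share, stood above every NC library while siPrp19b and siPrp19c stood below them. The log2 fold change was -0.20 (limma adjusted p = 0.399) and reached -0.35 (limma adjusted p = 0.0265) without siPrp19a. That fit leaves only the close pair siPrp19b and siPrp19c in its group, and a link to the mitochondrial share was not tested. KLHDC10, a substrate receptor of a cullin ubiquitin ligase, was at 13.2 ± 1.53 FPKM in NC and 14.1 ± 0.879 FPKM in siPrp19 (log2 fold change 0.09, limma adjusted p = 0.628). ZC3HC1, a component of the nuclear pore basket, was at 14.4 ± 1.59 FPKM and 15.9 ± 1.36 FPKM (0.13, limma adjusted p = 0.468). The groups overlapped in all 3 genes.

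UBE2H, a ubiquitin-conjugating enzyme, was the most abundant transcript of this side at 47.0, 47.0 and 43.7 FPKM in NC and 40.8, 40.1 and 40.4 FPKM in siPrp19. The groups did not overlap, and the log2 fold change was -0.18 (limma adjusted p = 0.157). NRF1, a transcription factor of nuclear genes for mitochondrial proteins, was at 5.72 ± 0.625 FPKM in NC and 5.04 ± 0.347 FPKM in siPrp19 (-0.15, limma adjusted p = 0.366). SMKR1, at 1.08 ± 0.288 and 1.18 ± 0.446 FPKM on 11 to 29 reads per library, had overlapping groups (0.05, limma adjusted p = 0.900). STRIP2, a subunit of the STRIPAK phosphatase and kinase complex, was at 2.62, 2.67 and 2.20 FPKM in NC and at 3.24, 3.74 and 3.39 FPKM in siPrp19. It was higher in every siPrp19 library, with a log2 fold change of 0.35 and a limma adjusted p of 0.0646.

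On the side after MEST, beyond COPG2, lie MKLN1 and PODXL. MKLN1, which encodes muskelin of the CTLH ubiquitin ligase, was at 9.49, 9.63 and 5.75 FPKM in NC and at 10.1, 9.16 and 8.29 FPKM in siPrp19 (0.16, limma adjusted p = 0.650). NCc alone was low, and without it the log2 fold change was -0.055. PODXL (ENSG00000128567, chr7:131500262-131558217, minus strand) encodes podocalyxin, a sialomucin of the cell surface, and begins 994 kb after the end of MEST in chromosome order, just inside the window. It was at 62.7, 60.8 and 52.5 FPKM in NC and at 37.5, 36.0 and 38.5 FPKM in siPrp19. The siPrp19 libraries lay close together below all NC libraries, with a mean 36.4% lower, a log2 fold change of -0.64 ± 0.087 (SE, 95% interval -0.84 to -0.43) and a limma adjusted p of 0.00950. The call was lost without NCa (limma adjusted p = 0.0521), without siPrp19b (0.0543) and with the 4 libraries (0.208), with log2 fold changes between -0.61 and -0.58. It was also lost with each close pair averaged (-0.59, limma adjusted p = 0.196).

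The other 6 protein-coding neighbours, among them SSMEM1, CPA5, CPA1, TSGA13 and KLF14, were not tested. None reached a mean of 1 FPKM, with at most 20 reads in any library for CPA5 and at most 6 for the others, so a change in them was not detectable at this depth. KLF14, an imprinted transcription factor gene 225 kb after MEST, had 6, 1 and 6 reads in NC and 6, 2 and 2 reads in siPrp19. CPA1 and CPA5 are carboxypeptidase genes between CPA4 and CEP41, and CPA5 had 19, 20 and 9 reads in NC and 11, 16 and 18 reads in siPrp19.

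**Figure D3:**
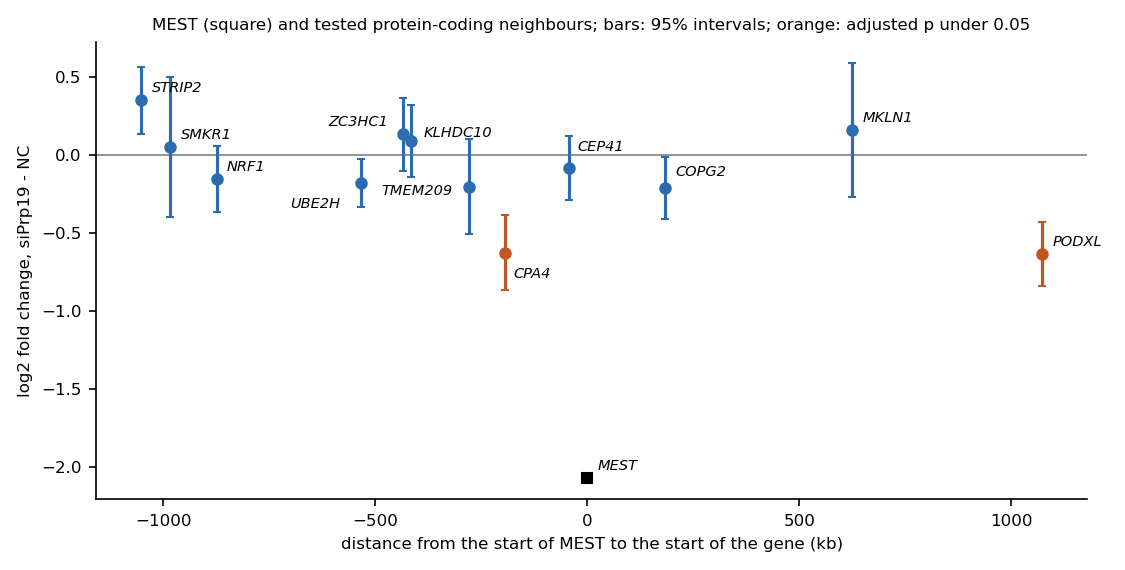
Log2 fold change of siPrp19 against NC (vertical axis) by the distance in kb from the start of MEST to the start of each gene (horizontal axis), for MEST (square) and the 12 tested protein-coding neighbours. Bars are 95% intervals, not drawn for MEST, and orange marks a limma adjusted p under 0.05. CPA4 and PODXL are the 2 orange points, near -0.6, and MEST lies far below at -2.07.

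Among the non-coding genes of the window, 4 were tested and 1 was called, beside 7.94% of all tested genes called. The called gene was ENSG00000270953, named here after its values were seen, an RNA of the plus strand at chr7:130507660-130508282. It begins 1.20 kb after the end of MEST inside the span of COPG2. It was at 5.27, 5.12 and 6.07 FPKM in NC and at 3.15, 2.63 and 2.68 FPKM in siPrp19, on 27 to 65 reads per library. The groups did not overlap, and the log2 fold change was -0.76 ± 0.092 (SE) with a limma adjusted p of 0.00679. It lies on the same strand as MEST. With the 4 libraries its log2 fold change was -0.77 (limma adjusted p = 0.129).

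Narrower and wider windows were compared. Within 0.25 Mb the 3 tested protein-coding neighbours, CPA4, CEP41 and COPG2, had a median log2 fold change of -0.21. Within 5 Mb there were 41 tested neighbours with a median of -0.08, of which 8 were called (7 lower and 1 higher, 19.5%), beside 7.94% of all tested genes. Of the protein-coding neighbours tested within 5 Mb, none had a log2(FPKM + 1) fold change below -0.64. This too is given as a description, since MEST was chosen for its large difference.

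**Figure D4:**
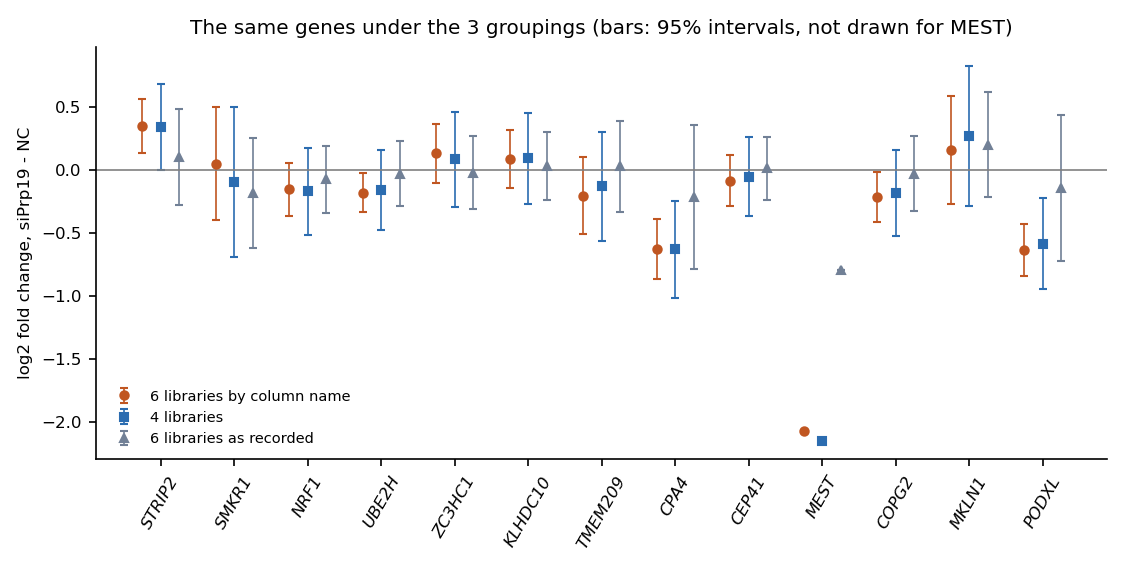
Log2 fold change of siPrp19 against NC (vertical axis) for MEST and its 12 tested protein-coding neighbours in chromosome order (horizontal axis), with 6 libraries grouped by column name (circles), the 4 libraries whose column name and sample state the same group (squares) and 6 libraries as recorded (triangles). Bars are 95% intervals, not drawn for MEST. MEST is near -2.1 by column name and in the 4 libraries and at -0.79 as recorded.

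Which genes were called depended on the grouping. The log2 fold change of CPA4 was -0.62 by column name and -0.63 in the 4 libraries, and that of PODXL -0.64 and -0.58. As recorded the changes were -0.22 for CPA4 and -0.14 for PODXL. By column name 1089 of 13718 genes passed (7.94%), 736 lower (5.37%) and 353 higher (2.57%), and with quantile normalization 1087 passed with 501 higher, which moved the higher share of the calls from 32.4% to 46.1%. With the 4 libraries 2 genes passed (0.0146%), none of them a neighbour of MEST, while 3 of the 12 neighbours had an unadjusted p under 0.05 beside 12.3% of all tested genes. In the same 4 libraries a test on recovered reads with voom called 316 genes. With the 6 libraries as recorded limma called 0 genes, with 191 at an unadjusted p under 0.05 (1.39%) and 0 of the 12 neighbours among those. With the closest pair of each group averaged 2 genes passed.

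The 5 tested genes whose profile over the 6 libraries was most like that of MEST were found by the root mean square difference of centred log2(FPKM + 1) values. PRPF19 was the nearest at 0.063, a match that the choice of MEST for its likeness to the siRNA target had fixed, and the remaining genes were at 0.325 or more. CRISPLD2, which encodes a secreted protein of the extracellular matrix, followed at 0.325, with 14.6, 14.4 and 13.6 FPKM in NC and 4.55, 4.51 and 4.61 FPKM in siPrp19. INHBA, the activin A subunit, was at 0.345, with 6.69, 6.66 and 4.78 FPKM in NC and 1.43, 1.42 and 1.56 FPKM in siPrp19. FAM3C, a secreted factor, was at 0.380, with 31.2, 31.1 and 35.8 FPKM in NC and 11.2, 12.7 and 13.2 FPKM in siPrp19. The fifth, a Y RNA copy (ENSG00000200769) at 0.337, rests on 0 to 8 reads per library. INHBA, FAM3C and this Y RNA lie on chromosome 7 as well, at least 9090 kb from MEST. The share of all tested genes on chromosome 7 was not computed, so nothing is drawn from this. Because MEST was chosen for its large difference, the ranking returns genes with a large difference of the same direction. No gene of the 1 Mb window was among the 5, which follows from their smaller changes and is given as a description.

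**Figure D5:**
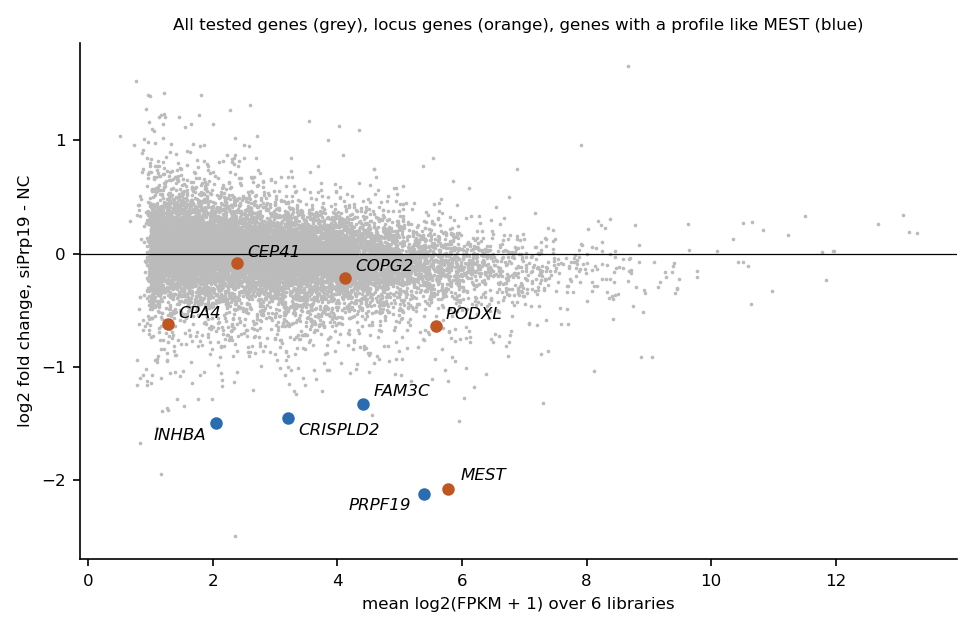
Log2 fold change of siPrp19 against NC (vertical axis) by mean log2(FPKM + 1) over the 6 libraries (horizontal axis) for the 13718 tested genes (grey), with MEST, COPG2, CPA4, CEP41 and PODXL in orange and the named genes with a profile like MEST in blue. MEST and PRPF19 lie side by side at -2.07 and -2.12, apart from nearly all other genes.

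Other genes known to be imprinted were described as a group. Of 40 listed genes 39 were matched and 24 tested, of which 2 were called lower and 1 higher, beside 7.94% of all tested genes called. The 3 calls became 1 without siPrp19b or without siPrp19c, and 5 without NCc. DDC, the aromatic amino acid decarboxylase that makes dopamine, was at 41.3 ± 3.66 FPKM in NC and 24.3 ± 0.732 FPKM in siPrp19 (log2 fold change -0.74, limma adjusted p = 0.00553). UBE3A, the ubiquitin ligase lost in Angelman syndrome, was at 9.63 ± 0.652 and 6.31 ± 0.594 FPKM (-0.54, limma adjusted p = 0.0148). MEG3, a maternally expressed non-coding RNA, was at 7.08 ± 0.747 and 11.2 ± 0.240 FPKM (0.60, limma adjusted p = 0.0102). The median of the 24 was -0.02, beside -0.02 over all tested genes. TFPI2, a protease inhibitor and the most abundant of the list at 144 FPKM on average, was at -0.33 (limma adjusted p = 0.0804).

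Genes that share a function with the locus were described as lists, to be read beside the 7.94% of all tested genes called. Of the 9 COPI coatomer genes, all tested, 0 passed, with a median of -0.08. COPA, the most abundant at 49.1 FPKM, was at -0.25 (limma adjusted p = 0.142). Of 16 M14 carboxypeptidases and their inhibitor latexin, 4 were tested and 2 were called lower, CPA4 and CPXM1 (11.9 ± 0.620 and 8.79 ± 0.551 FPKM, -0.40, limma adjusted p = 0.0220), while CPE, which trims prohormones, was at 0.25 (limma adjusted p = 0.348). Of 26 tested ciliary genes linked to Joubert syndrome, 1 was called lower, TMEM237 (12.6 ± 0.934 and 9.57 ± 0.273 FPKM, -0.36, limma adjusted p = 0.0322), and TCTN3, the most abundant, was at 0.17 (limma adjusted p = 0.254). The calls of both lists became 0 without NCa, NCb, siPrp19b or siPrp19c, each left out alone, and without the filter on low values. The 1 ciliary call also became 0 with quantile normalization and after rescaling to the same sum, while 2 coatomer genes and 3 carboxypeptidases passed without NCc.

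Of 29 genes of the WNT and LRP6 pathway, to which MEST has been linked, 19 were tested, 2 were called lower and 0 higher, with a median of 0.04. The co-receptor LRP5 was at 21.9 ± 0.736 FPKM in NC and 15.9 ± 0.953 FPKM in siPrp19 (-0.44, limma adjusted p = 0.0148). CTNNB1, which encodes beta-catenin, was at 20.3 ± 0.141 and 14.6 ± 0.0549 FPKM (-0.45, limma adjusted p = 0.00807). LRP6 itself, named here for its described link to MEST, was at 7.60 ± 1.83 and 8.12 ± 0.547 FPKM (0.11, limma adjusted p = 0.742), and WLS, the carrier of WNT ligands and the most abundant of the list, was at 0.03 (0.821). The 2 calls became 0 without NCa, siPrp19b or siPrp19c, each left out alone, and 1 without NCb.

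Of the 4 genes described as targets of miR-335, 3 were tested, and the 2 that passed moved in opposite directions. TNC, which encodes the matrix protein tenascin C, was at 11.6 ± 1.99 FPKM in NC and 18.3 ± 1.60 FPKM in siPrp19 (0.62, limma adjusted p = 0.0350). SOX4, a transcription factor, was at 23.0 ± 0.690 and 18.4 ± 1.21 FPKM (-0.31, limma adjusted p = 0.0458). Of 19 tested alpha/beta hydrolases, the protein fold of MEST, 1 was called higher, ABHD13 (7.40 ± 0.273 and 9.27 ± 0.288 FPKM, 0.29, limma adjusted p = 0.0390), and LYPLA2, the most abundant, was at 0.18 (limma adjusted p = 0.461). With the replicate block 1 of the miR-335 targets passed and 0 of the hydrolases. Both counts were 0 without the filter on low values, after rescaling to the same sum, and when any library other than NCc was left out. The shares of genes called in these lists are to be read beside the 7.94% of all tested genes. None of the list calls held with the 4 libraries or with the 6 libraries as recorded, by limma.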

How the data were processed

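RNA-seq of SK-N-AS cells gave 6 libraries, 3 per group, with the group taken from the name of each value column. The authors deposited 1 FPKM value per gene and library for 58735 Ensembl genes. The labels list HISAT2 2.0.5, featureCounts 1.5.0-p3 and hg38; the annotation and the strand setting are not given in the sources used here. The study tested its counts with DESeq2, which could not be used on FPKM. Whole reads were recovered from FPKM and merged exon lengths of GENCODE 29 (100% of values whole within 0.05), with totals of 14887132 to 19977811 reads, and intervals cover counting and library spread only. GENCODE 29 held all 58735 identifiers, and a table of current gene names supplied 58207 symbols. The 13718 genes averaging 1 FPKM or more were fitted as log2(FPKM + 1) with limma 3.58.1 (R 4.3.3, mean-variance trend), with Benjamini-Hochberg adjustment over all of them and a threshold of 0.05. This scale understates changes of low genes. SE and 95% intervals come from that fit. Spread is given as SD. Counts were tested with voom as an alternative.

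The genes and lists were chosen with earlier results of these data known. Named were all protein-coding genes within 1 Mb of MEST, all genes overlapping it, PRPF19, the 5 nearest profiles, and of each list up to 3 called genes per direction and the most abundant. Results for some genes are not reported here. On simulated data with 200 changed genes, the 6-library fit recovered 186 with 13 false calls and the 4-library fit 182 with 16 false calls (13741 and 13744 genes). The simulated libraries were independent, without close pairs, so these figures check the code and do not give power or error rates for the real libraries. Python 3.11.15 was used for the tables and matplotlib 3.10.9 for the plots.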

Additional observations from a re-analysis of the deposited data

How the results depend on the processing

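Of 355 values recomputed under alternatives, 254 were labelled the same. These kept their direction and side of the threshold, moved by less than the spread, or, for counts of genes, stayed within a fixed factor. The number of genes passing was 512 without the filter on low values, 676 after rescaling to the same sum, 2 in the 4 libraries, 0 as recorded, 2 with the closest pairs averaged and 253 to 1354 when 1 library was left out; in the 4 libraries voom called 316, beside 2 by limma. The log2 fold change of MEST was -1.95 with quantile normalization, -0.79 as recorded and -2.13 to -2.03 leaving out 1 library. That of CPA4, called by column name, missed the threshold without the filter (-0.62, limma adjusted p = 0.0544), in the 4 libraries (-0.63), as recorded (-0.22) and with the closest pairs averaged (-0.61, limma adjusted p = 0.198), and ran from -0.67 to -0.59 leaving out 1 library; it was -1.002 with a pseudocount of 0.1 and -1.07 with voom. PODXL missed it in the 4 libraries (-0.58), as recorded (-0.14) and with the closest pairs averaged (-0.59), and ran from -0.71 to -0.59 leaving out 1 library. STRIP2 passed with voom (0.48, adjusted p = 0.0313). CEP41 was 0.015 as recorded. SMKR1 turned to -0.096 in the 4 libraries, -0.18 as recorded and -0.092 with the closest pairs averaged, and ran from -0.065 to 0.23 leaving out 1 library. As recorded, ZC3HC1 was -0.019 and TMEM209 0.032. Leaving out 1 library, KLHDC10 ran from -0.0011 to 0.15 and MKLN1 from -0.055 to 0.27. Leaving out 1 library, the calls in the lists ran from 1 to 5 (imprinted), 0 to 3 (carboxypeptidases), 0 to 2 (coatomer, WNT, miR-335 targets, hydrolases), and 0 to 1 (ciliary genes). The median of the neighbours was -0.022 as recorded and -0.21 within 0.25 Mb, where only 3 genes are tested. Fewer libraries or fewer genes entered some of these fits, and the cause of the other shifts was not tested.

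Same-numbered libraries correlated at 0.134 (a), -0.049 (b) and 0.204 (c) in their deviations. The a and c libraries each correlated best with their same-numbered partner, while NCb correlated best with siPrp19a (0.131). Whether the numbers pair the libraries was therefore not settled. With the replicate block 928 genes passed instead of 1089, and no call of a locus gene changed. At the depth of these libraries, neighbours with a few reads and the short RNAs inside MEST could not be compared.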
